A study of Mus musculus with 20 samples.

Results

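Translation initiation factors are the proteins that bring the ribosome to the start codon of a messenger RNA. The 44 genes described here were those whose name on the array begins with Eif and a digit from 1 to 6, leaving aside the Eif4ebp genes (inhibitors of Eif4e) and the Eif2ak genes (kinases of eIF2), out of 27672 genes on the array. They were covered by 106 of the 41174 distinct non-control probes, and the probe with the highest mean over all 20 arrays stood for its gene, so no difference between groups entered the choice. All 44 passed the filter on dim probes and were among the 25291 genes tested. The files name 4 of the 44 Eif2c1 to Eif2c4, which are older names of the Argonaute genes Ago1 to Ago4. Argonautes bind small RNAs and are not initiation factors, so they are described apart and the counts are also given over the other 40 genes. Another 6 genes whose current symbols have this form stand in the files under other names (Eif4h, Eif3m, Eif6, Eif4a3, Eif2d and Eif1ad) and are not among the 44. None of those 6 had an adjusted p below 0.05 between hind-limb suspension and control in limma's test, and Eif6, which keeps ribosomal subunits apart, stood at 0.01 in soleus and 0.09 in gastrocnemius (log2 difference, adjusted p = 0.98 and 0.82).

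The samples were muscles of male ICR mice aged 6 months, with 1 muscle sample per array. The groups were soleus after 24 h of hind-limb suspension (HLS, a model of unloading that lifts the hind limbs off the floor, here at a head-down tilt of 45°), soleus of freely moving control mice, gastrocnemius after 24 h of HLS, and gastrocnemius of control mice, with 5 arrays each. The soleus is a slow postural muscle and the gastrocnemius a mixed, mostly fast one. Within an arm, both muscles of a number came from the same mouse, while HLS and control mice were different animals. The labels state no genetic change.

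Initiation starts when eIF2, loaded with GTP and the initiator transfer RNA, joins the small ribosomal subunit together with eIF1, eIF1A, eIF3 and eIF5. The cap-binding protein eIF4E, the scaffold eIF4G and the helicase eIF4A bring that complex to the capped end of the messenger RNA, and after scanning to the start codon eIF5B joins the large subunit. The pathway is controlled mainly through proteins that sequester eIF4E (the 4E-BPs, under mTORC1) and through phosphorylation of eIF2, which blocks its exchange factor eIF2B, and in skeletal muscle both are known to respond to load and nutrients.

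Levels are log2 intensities scaled to each array's own 75th percentile, and differences are log2 differences from limma with their SE. A gene was called when its Benjamini-Hochberg adjusted p over all 25291 genes was below 0.05. The share of detected probes ran between 80.75% and 93.08%, and the precision is limited by how many arrays there are. All 7 slow fibre markers were higher in soleus than in gastrocnemius, in HLS and in control mice. Soleus HLS array 1 stood apart in fibre genes: the summed level of the 7 slow fibre markers ranged from 837 to 2120 in soleus HLS and from 1760 to 2260 in soleus control (multiples of the 75th percentile), with the lowest value on that array. The summed level of 6 endothelial markers was 29.2 to 37.6 in soleus HLS and 37.8 to 42.4 in soleus control, and 21.7 to 26.4 in gastrocnemius HLS and 25.3 to 30.4 in gastrocnemius control. Among these 6 markers 1 was called in each muscle, Flt1 in soleus (-0.61, limma adjusted p = 0.0067) and Kdr in gastrocnemius (-1.12, limma adjusted p = 0.023), both lower. Over all genes, 3.54% in soleus and 2.01% in gastrocnemius were called lower. The other endothelial values went both ways, none of them called. Cdh5 stood at 0.30 in soleus and 0.22 in gastrocnemius and Pecam1 at 0.19 and 0.17. Kdr was lower in soleus, at -0.88, and Flt1 averaged 3.51 in gastrocnemius HLS and 3.88 in gastrocnemius control. Tek was lower in both muscles, and Vwf was lower in soleus and higher in gastrocnemius. The median over the 6 was -0.10 in soleus and 0.07 in gastrocnemius. The part of these cells in the results below was not tested. In whole muscle, fewer cells of a type and less RNA per cell cannot be told apart. Scaled to the spike-in RNA in place of the percentile, the median over all genes moved by -0.21 in soleus HLS against control and by 0.79 in gastrocnemius HLS against control, so all changes are relative to the bulk of genes. Each muscle was run on its own slides, and most HLS and control arrays of a muscle lay on different slides. All gastrocnemius control arrays and gastrocnemius HLS array 1 were scanned on day 1, the other gastrocnemius HLS arrays, all soleus control arrays and soleus HLS arrays 1 to 3 on day 2, and soleus HLS arrays 4 and 5 on day 3. The spike-in level (log2 relative to the 75th percentile) went with scan day: 2.005 to 2.652 on day 1, 1.432 to 1.739 on day 2, and 2.012 and 1.899 on day 3. Shifts on the spike-in scale were not separated from scan day, and between control muscles they cannot be.

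Few initiation factors were called after 24 h of suspension. In soleus 4 of the 44 genes were called (9.09%, or 4 of 40 without the Argonautes), where 5.93% of all genes tested were called (2.39% higher and 3.54% lower). In gastrocnemius 2 of 44 were called (4.55%), where 3.17% of all genes were (1.16% higher and 2.01% lower). These shares are near those over all genes. Eif4e, which binds the cap, was lower after HLS in both muscles relative to all genes, although in gastrocnemius it stood at 0.20 on the spike-in scale, and Eif4g3, a scaffold of the eIF4G family, was higher in both. In soleus Eif1a, a scanning factor, was also lower and Eif2b2, the beta subunit of eIF2B, higher. At an unadjusted p below 0.05 there were 10 members in soleus (22.7%, against 17.9% of all genes) and 8 in gastrocnemius (18.2%, against 14.6%).

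The members' differences sat near those of all genes. The median difference over the members was 0.06 in soleus, with 0.05 over all genes, and 0.01 in gastrocnemius, with 0.01 over all genes. In soleus 38 of the 44 (86.4%) lay within 0.3 of zero, against 78.1% of all genes, and in gastrocnemius 39 (88.6%), against 81.1%. The median SE of a member's difference was 0.117, and differences near that size were not detectable with 5 arrays a group. In a simulated counterpart of the soleus comparison, 11 of 50 genes changed by 0.5 were called, and 36 of 50 changed by 1. There 50 genes were changed at each of the sizes 0.5, 1, 1.5 and 2, among 25107, with noise independent between genes. Fewer genes changed than were called in the soleus data (5.93%), which makes the adjusted threshold stricter. The simulated counts are therefore not detection rates for these data. The plot of all members' HLS differences shows Eif4e and Eif4g3 at opposite ends in both muscles.

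**Figure D1:**
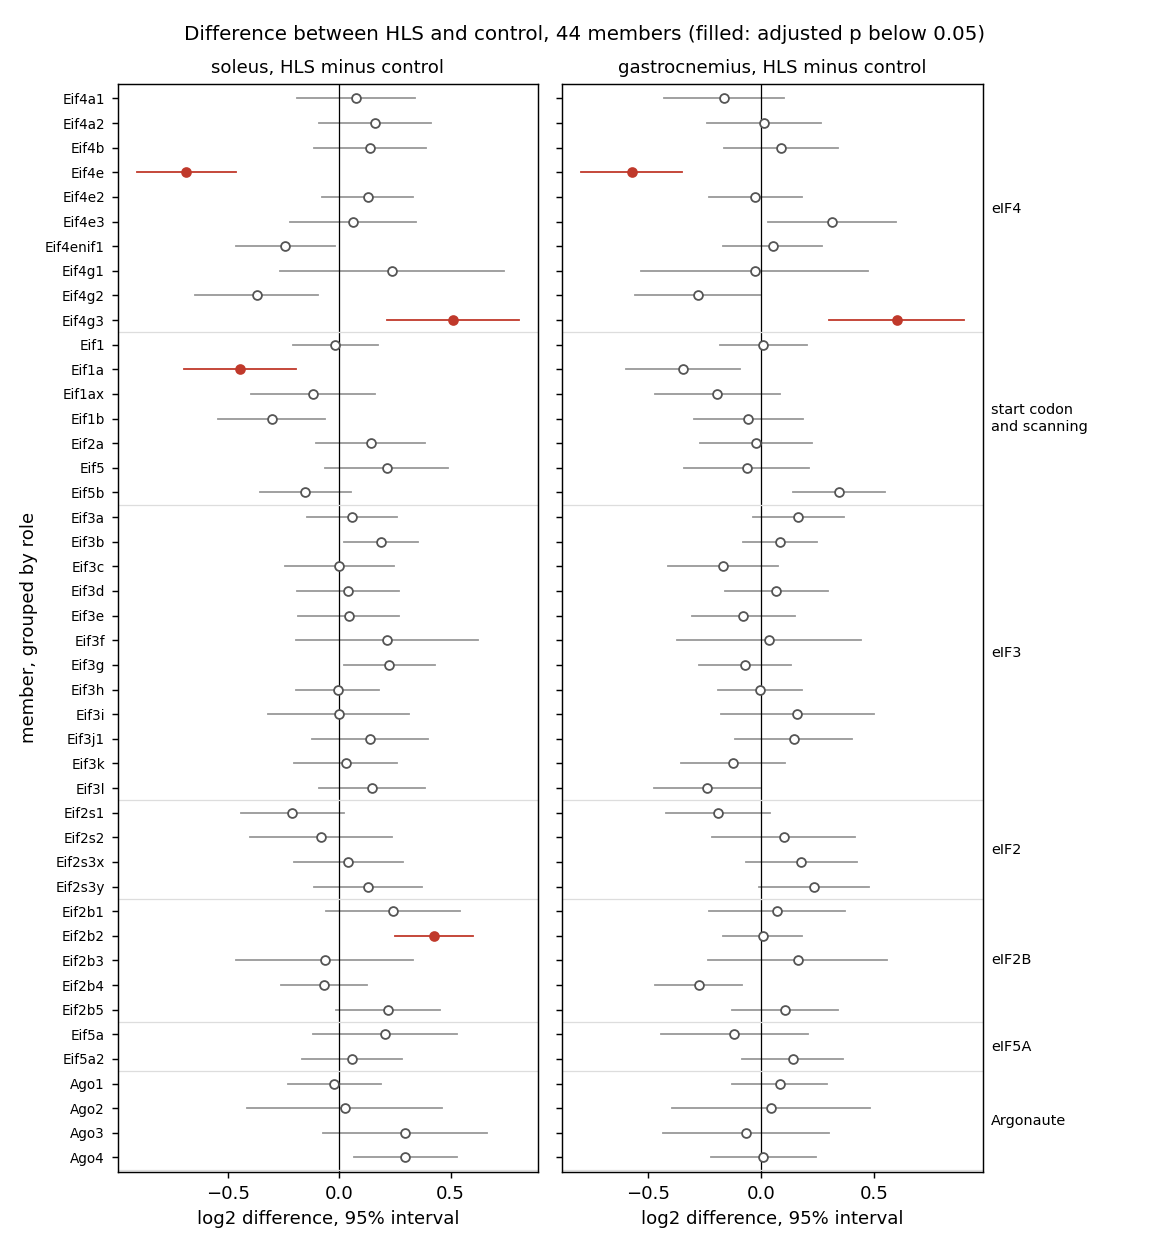
Log2 difference between HLS and control for each of the 44 members, with its 95% interval, in soleus (left) and gastrocnemius (right), grouped by role; filled red points have an adjusted p below 0.05 in limma's test. Eif4e stood at -0.69 and -0.57 and Eif4g3 at 0.51 and 0.60, after scaling to the 75th percentile (on the spike-in scale Eif4e in gastrocnemius stood at 0.20), and 38 and 39 members lay within 0.3 of zero.

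The cap complex held the only members called in both muscles, where 517 of the 25291 genes tested were called in both. Eif4e, whose protein recognises the cap and is the target of the 4E-BPs, stood at 1.61, 1.84, 1.81, 2.07 and 1.78 on the 5 soleus HLS arrays, against 2.59, 2.72, 2.18, 2.70 and 2.37 on the soleus control arrays. Every HLS array was below every control array. The difference was -0.69 ± 0.11 (SE, n = 5 per group, limma adjusted p = 0.00033), or 0.621 times the control level. In gastrocnemius HLS it stood at 1.59, 1.62, 1.71, 1.85 and 1.70, against 2.27, 2.31, 2.19, 2.29 and 2.28 in gastrocnemius control. The groups were again apart, by -0.57 ± 0.11 (limma adjusted p = 0.0038), although on the spike-in scale, where all genes moved by 0.79, Eif4e in gastrocnemius stood at 0.20. The members' groups did not overlap for 6 of 44 in soleus (13.6%, against 5.05% of all genes) and for 5 of 44 in gastrocnemius (11.4%, against 7.45%).

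Within slide 5, which held 3 HLS and 1 control soleus arrays, Eif4e differed by -0.62, and within scan day 2, with 3 HLS and 5 control soleus arrays, by -0.76. Within slide 2, with 1 HLS and 3 control gastrocnemius arrays, it differed by -0.66. With slide as a fixed block, which leaves few arrays to compare, neither Eif4e call held (adjusted p = 0.49 in soleus and 0.33 in gastrocnemius), no member was called in either muscle, and 0.0909% and 0.0395% of all genes were.

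Eif4e had 3 probes, and they did not all move alike. The second brightest stood at 1.29 ± 0.28 in soleus HLS and 2.29 ± 0.19 in soleus control, a difference of -0.998 ± 0.13 (limma adjusted p = 9.5e-05 over 37373 probes). In gastrocnemius it stood at 1.68 ± 0.17 in HLS and 2.25 ± 0.17 in control (SD, n = 5), a difference of -0.57 ± 0.13 (limma adjusted p = 0.023). The third was dim, at -3.45 ± 0.42 in soleus HLS and -3.54 ± 0.24 in soleus control, and differed by 0.08 (limma adjusted p = 0.88) in soleus and by -0.15 (limma adjusted p = 0.80) in gastrocnemius. With the mean of all probes in place of the brightest, the gastrocnemius difference of Eif4e was -0.43 and not called (limma adjusted p = 0.060).

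**Figure D2:**
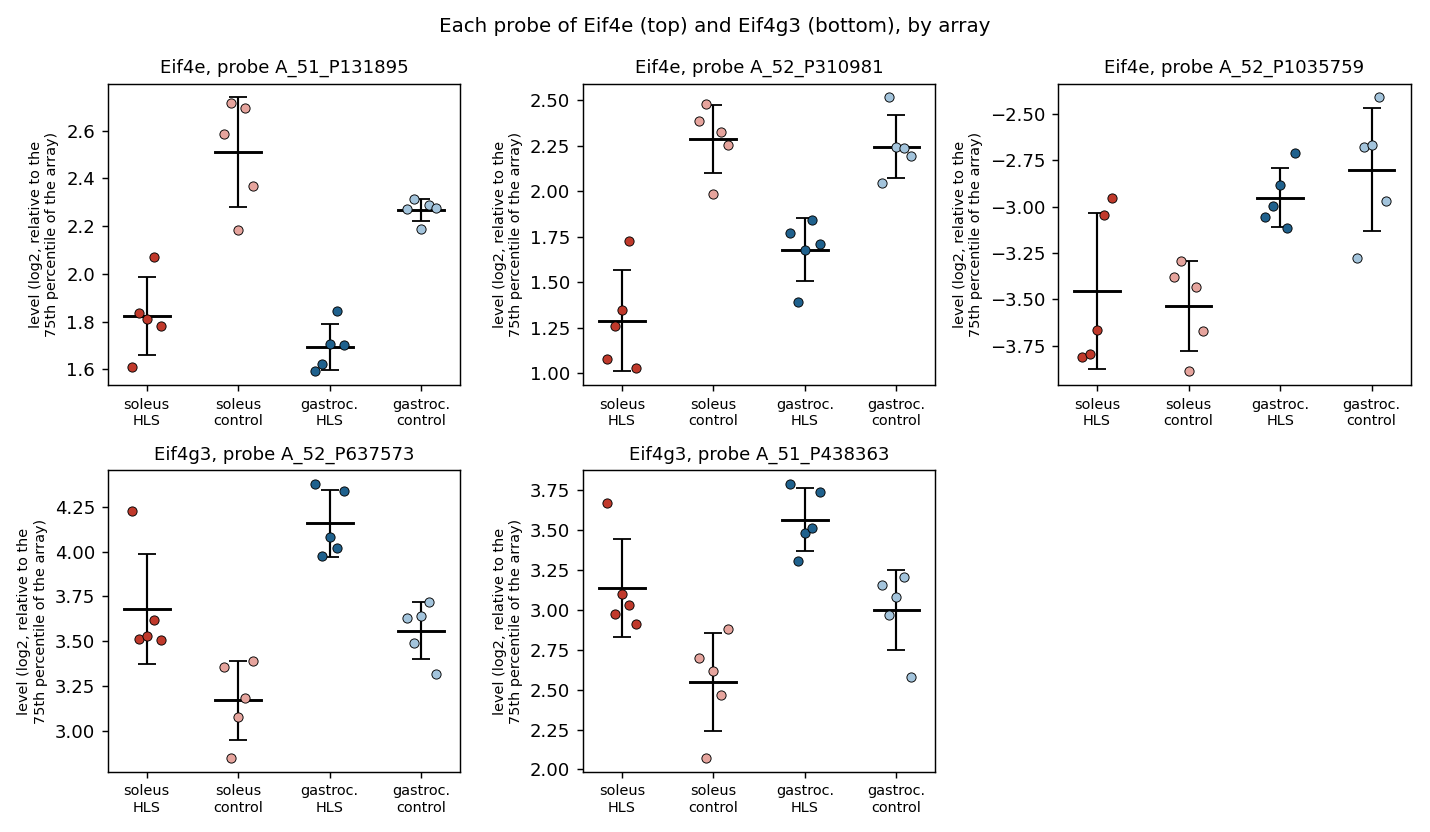
Level on each array of the 3 probes of Eif4e (top) and the 2 probes of Eif4g3 (bottom), in log2 after scaling to the 75th percentile; bars are means with SD, n = 5 arrays per group, and each panel has its own axis. The upper left and middle Eif4e probes were lower in HLS in both muscles (-0.69 and -0.998 in soleus), although on the spike-in scale the first stood at 0.20 in gastrocnemius, and the dim probe at upper right was not called in either.

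Eif4g3, a relative of the scaffold Eif4g1, stood at 4.23, 3.51, 3.53, 3.62 and 3.51 in soleus HLS, against 3.35, 2.85, 3.08, 3.18 and 3.39 in soleus control. Array 1 was the highest of the soleus HLS arrays and the groups did not overlap. The difference was 0.51 ± 0.14 (limma adjusted p = 0.037). In gastrocnemius HLS Eif4g3 stood at 4.38, 3.98, 4.08, 4.02 and 4.34, against 3.63, 3.49, 3.64, 3.72 and 3.32 in gastrocnemius control. The groups were apart there too, with a difference of 0.60 ± 0.14 (limma adjusted p = 0.023). Its second probe differed by 0.59 in soleus (limma adjusted p = 0.039) and by 0.57 in gastrocnemius (limma adjusted p = 0.071). The rise was 0.37 within slide 5, 0.59 within scan day 2 and 0.82 within slide 2. Without soleus HLS array 1 the soleus difference was 0.37 and not called (limma adjusted p = 0.090), as it was without soleus control arrays 2, 3 or 4 or HLS array 4 (0.43 to 0.53). The gastrocnemius call was lost without control array 2 or 5 or HLS array 1 or 5 (0.54 to 0.58, limma adjusted p = 0.062 to 0.070). Of the other settings, the soleus call of Eif4g3 was lost without both arrays of HLS animal 1, with scan day as a block (limma adjusted p = 0.062), with spike-in scaling relative to all genes (0.11), with only the 10 soleus arrays (0.15), with the replicate number as a block (0.17) and with slide (0.89). The gastrocnemius call was lost with the replicate number (limma adjusted p = 0.068), scan day (0.25) and slide (0.37) as blocks.

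The promoter windows of 3 called members are shown because Eif4e and Eif4g3 changed in both muscles in opposite directions and Eif2b2 in soleus. They are the 250 bases before the RefSeq start on the plus strand of build GRCm38.p6: chr3:138527018-138527267 for Eif4e (the downstream of its 2 starts), chr4:137993205-137993454 for Eif4g3 and chr12:85219231-85219480 for Eif2b2. Capitals mark matches on either strand to the motifs searched. The E-box was searched as CACGTG. The CCAAT box was searched by the letters of its name, and the GC box as GGGCGG. The ETS motif was searched as CCGGAAG, and the cyclic AMP element as TGACGTCA. No match overlapped another.
Eif4e: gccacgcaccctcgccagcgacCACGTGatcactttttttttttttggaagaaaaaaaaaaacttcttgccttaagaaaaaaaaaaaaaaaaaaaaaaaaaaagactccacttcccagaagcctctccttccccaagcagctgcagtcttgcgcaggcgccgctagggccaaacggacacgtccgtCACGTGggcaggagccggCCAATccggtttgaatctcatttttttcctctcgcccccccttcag
Eif4g3: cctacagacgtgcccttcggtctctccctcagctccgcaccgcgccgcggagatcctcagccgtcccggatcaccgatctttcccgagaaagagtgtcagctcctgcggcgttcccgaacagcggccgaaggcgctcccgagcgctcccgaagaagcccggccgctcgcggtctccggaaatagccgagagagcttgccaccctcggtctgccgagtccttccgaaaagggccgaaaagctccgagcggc
Eif2b2: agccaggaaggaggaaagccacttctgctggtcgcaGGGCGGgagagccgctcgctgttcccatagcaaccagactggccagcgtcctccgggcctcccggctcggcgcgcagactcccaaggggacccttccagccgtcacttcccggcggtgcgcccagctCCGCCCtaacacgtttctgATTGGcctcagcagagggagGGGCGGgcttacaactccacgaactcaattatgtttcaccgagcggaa

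The Eif4e window held 2 E-boxes, 228 and 64 bases before the start, and 1 CCAAT box, while the window of its other start held none of the 5 motifs. The Eif2b2 window held 3 GC boxes and 1 CCAAT box, and the Eif4g3 window none of the letters searched. The E-box stood in 6.02% of 32851 RefSeq windows of this length and in 10 of the 49 windows (20.4%) of the 36 members that have one. The GC box stood in 32.7% of all windows and 69.4% of member windows, and the CCAAT box in 33.8% and 28.6%. The ETS motif stood in 6.91% of all windows and 20.4% of member windows, and the cyclic AMP element in 1.55% and none. A match is a description of the letters and says nothing about binding.

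The other 8 members of the cap complex were not called. Eif4g2, an eIF4G relative that does not bind eIF4E, stood at 2.91, 2.96, 2.65, 2.78 and 2.27 in soleus HLS, against 3.11, 2.82, 3.19, 3.01 and 3.31 in soleus control, and the groups overlapped. It differed by -0.37 ± 0.13 (limma adjusted p = 0.12) in soleus and by -0.28 ± 0.13 (limma adjusted p = 0.33) in gastrocnemius. Eif4g1, the main scaffold, had the largest SD of the members in soleus control (0.608) and in gastrocnemius control (0.403): soleus control arrays 2 and 4 stood at 1.39 and 1.64 and the other 3 between 2.46 and 2.77, and the difference was 0.24 ± 0.24 in soleus and -0.03 ± 0.24 in gastrocnemius. Eif4a1 and Eif4a2, the helicases, differed by 0.08 ± 0.13 and 0.16 ± 0.12 in soleus and by -0.17 ± 0.13 and 0.01 ± 0.12 in gastrocnemius, and the Eif4a1 value in soleus changed sign with normexp background (-0.001). Eif4enif1, which carries eIF4E into the nucleus, differed by -0.24 in soleus (limma adjusted p = 0.22), and Eif4e3, an eIF4E relative, by 0.31 in gastrocnemius (limma adjusted p = 0.27).

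Of the 7 factors of scanning and start codon choice, 1 was called lower in soleus and none in gastrocnemius. Eif1a stood at -0.34, -0.16, -0.27, -0.19 and -0.59 in soleus HLS, against -0.12, 0.15, 0.16, 0.54 and -0.06 in soleus control. The groups did not overlap, and control array 4 was the highest. The difference was -0.45 ± 0.12 (limma adjusted p = 0.030), with -0.20 within slide 5 and -0.39 within scan day 2. The call was lost without control array 3 or 4 or HLS array 1 or 5 (-0.35 to -0.44, limma adjusted p = 0.055 to 0.093), and with the mean of its 3 probes (-0.29, limma adjusted p = 0.20). It was also lost with spike-in scaling relative to all genes (limma adjusted p = 0.057), without both arrays of HLS animal 1 (0.067), with only the 10 soleus arrays (0.15), and with scan day (0.19), the replicate number (0.20) or slide (0.93) as a block. In gastrocnemius Eif1a stood at -0.44, -0.71, -0.50, -0.30 and -0.42 in HLS, against -0.29, -0.01, -0.08, -0.16 and -0.09 in control, also without overlap, but the difference of -0.35 ± 0.12 was not called (limma adjusted p = 0.14). Its near relative Eif1ax, which encodes almost the same protein, differed by less: -0.12 in soleus and -0.19 in gastrocnemius (limma adjusted p above the threshold in both).

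Eif1b differed by -0.30 ± 0.12 in soleus (limma adjusted p = 0.15), with control array 4 at 2.88 above the other 4 control arrays at 2.25 to 2.38. Eif5b, the GTPase that joins the ribosomal subunits, stood at 3.71, 3.48, 3.59, 3.55 and 3.69 in gastrocnemius HLS, against 3.07, 3.29, 3.15, 3.50 and 3.29 in gastrocnemius control. The groups overlapped through HLS array 2 and control array 4, and the difference of 0.35 ± 0.10 was not called (limma adjusted p = 0.060). In soleus Eif5b differed by -0.15 ± 0.10. Among its 5 probes the gastrocnemius difference ranged from -0.33 to 0.35, so the probes disagreed.

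The 12 subunits of eIF3, the scaffold of the small subunit complex, stood close to control. In soleus they ranged from -0.01 to 0.22 with a median of 0.05, and in gastrocnemius from -0.24 to 0.16 with a median of 0.01, with none called. Eif3g and Eif3l, at the ends of the range, stood at 0.22 ± 0.10 in soleus (limma adjusted p = 0.22) and -0.24 ± 0.11 in gastrocnemius (limma adjusted p = 0.33). Eif3a, the largest subunit, differed by 0.06 ± 0.10 in soleus and 0.16 ± 0.10 in gastrocnemius. Eif3f, a subunit known from work on muscle atrophy, stood at 3.26, 3.00, 2.85, 2.82 and 2.55 in soleus HLS, against 2.90, 2.11, 2.88, 2.24 and 3.27 in soleus control, and differed by 0.21 ± 0.20 (limma adjusted p = 0.64). As for Eif4g1, control arrays 2 and 4 were the lowest.

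None of the 4 genes of eIF2, which carries the initiator transfer RNA, was called in either muscle. Eif2s1, the alpha subunit on which the eIF2 kinases act, averaged 1.40 ± 0.21 in soleus HLS and 1.61 ± 0.14 in soleus control (SD, n = 5), a difference of -0.21 ± 0.11 (limma adjusted p = 0.34). In gastrocnemius it differed by -0.19 ± 0.11 (limma adjusted p = 0.46).

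Among the 5 subunits of eIF2B, which recharges eIF2 with GTP, Eif2b2 was called in soleus. It stood at 3.85, 3.83, 3.93, 3.85 and 3.78 in soleus HLS, against 3.48, 3.49, 3.27, 3.32 and 3.55 in soleus control. All HLS arrays were above all control arrays, and the difference was 0.42 ± 0.08 (limma adjusted p = 0.0031), or 1.34 times the control level. It was 0.32 within slide 5 and 0.45 within scan day 2, and the call held without each of the 20 arrays in turn. It did not hold when only the 10 soleus arrays were fitted (limma adjusted p = 0.059) or under spike-in scaling relative to all genes (0.37, limma adjusted p = 0.065). The Eif2b2 call was also lost with slide or the replicate number as a block. In gastrocnemius Eif2b2 averaged 3.63 ± 0.12 in HLS and 3.62 ± 0.06 in control (SD, n = 5). Eif2b4, the delta subunit, stood at 3.42, 3.03, 3.39, 3.35 and 3.42 in gastrocnemius HLS, against 3.61, 3.69, 3.54, 3.67 and 3.48 in gastrocnemius control, without overlap, at -0.28 ± 0.09 (limma adjusted p = 0.12). Eif2b5, the catalytic subunit, differed by 0.22 ± 0.11 in soleus and 0.10 ± 0.11 in gastrocnemius, and neither was called.

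**Figure D3:**
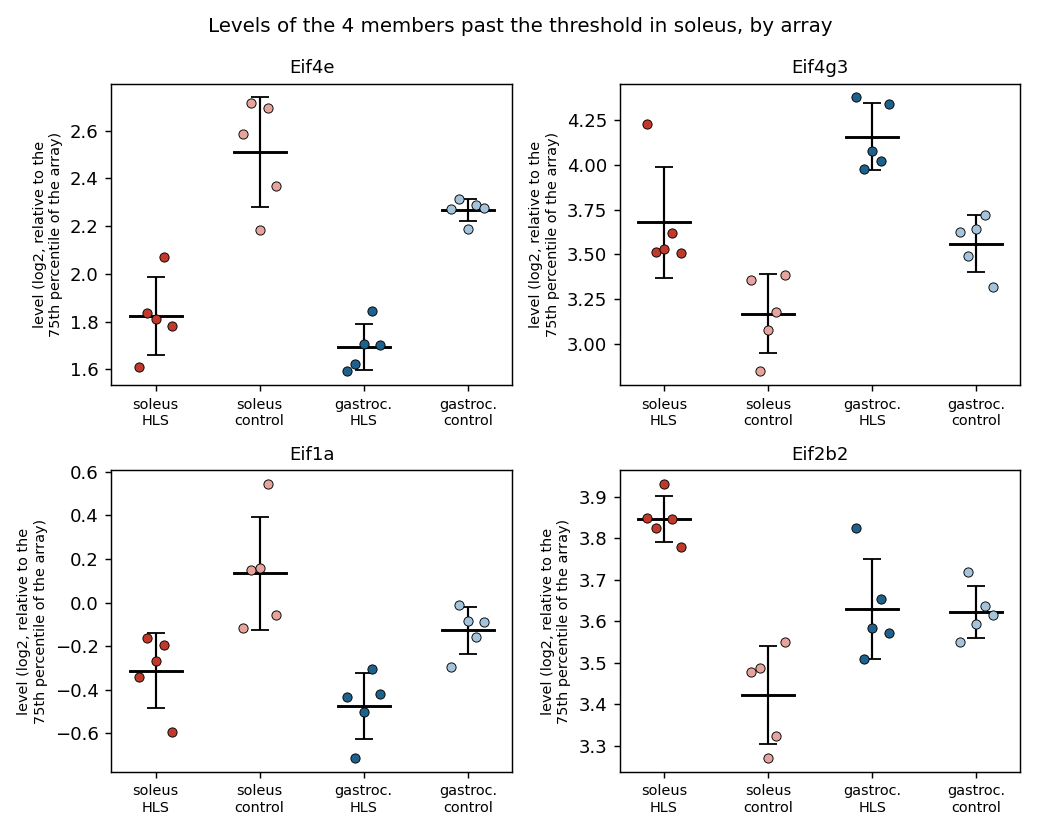
Level on each array of the 4 members called in soleus, in log2 after scaling to the 75th percentile; points are arrays in the order of the animal numbers, bars are means with SD (n = 5 per group), and each panel has its own axis. Eif4e and Eif1a were lower and Eif4g3 and Eif2b2 higher on every soleus HLS array than on every soleus control array; in gastrocnemius the groups of Eif2b2, at 3.63 and 3.62, overlapped.

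Eif5a, which is modified with hypusine and helps elongation as well as initiation, differed by 0.21 ± 0.16 in soleus and -0.12 ± 0.16 in gastrocnemius. Neither it nor Eif5a2 was called, nor were the hypusine enzyme genes Dhps and Dohh. The 4 Argonaute genes ranged from -0.02 to 0.30 in soleus and from -0.07 to 0.08 in gastrocnemius, with none called.

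For the difference of the soleus and gastrocnemius HLS effects, 0 of 44 members were called in limma's test, where 0.00791% of all genes were. At an unadjusted p below 0.05 there were 4 members (9.09%, against 5.75% of all genes): Eif5b at -0.50 ± 0.14 (limma adjusted p = 0.45), Eif2b2 at 0.42 ± 0.12 (0.47), Eif3l at 0.39 ± 0.16 (0.80) and Eif3g at 0.30 ± 0.14 (0.85). On the spike-in scale the difference of effects moved by -1.005 over all genes, so these values too are relative to all genes. For Eif4e the difference of effects was -0.11, with a 95% interval of -0.43 to 0.20, and for Eif4g3 -0.09, with one of -0.51 to 0.33. Across the 44 members the effects in the muscles, which share no arrays, correlated with r = 0.531 (0.556 over all genes). The rank correlation was 0.223 (0.385 over all genes), and the sign was the same for 25 members (56.8%, against 63.1% of all genes). The points share probe and animals, so this is a description.

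The muscles differed in more members than were called after HLS. In control mice all gastrocnemius arrays were scanned on day 1 and all soleus arrays on day 2, and each slide held 1 muscle, so there muscle cannot be told apart from scan day within a day or from slide. This also holds for control values on the spike-in scale, since the spike-in level went with scan day. In HLS mice 15 of 44 were called between soleus and gastrocnemius (34.1%, against 31% of all genes), 9 higher and 6 lower in soleus (13.4% and 17.6% of all genes). In control mice 12 were called (27.3%, against 33.5%), 5 higher and 7 lower (12.7% and 20.9% of all genes), relative to all genes, whereas on the spike-in scale, where all genes moved by 0.998, all 44 members were higher in control soleus (median 1.05). In HLS mice all genes moved by -0.01 on that scale, with 23 members higher and 21 lower. Over the 40 genes without the Argonautes these were 13 and 9. With quantile normalization the split was 4 higher and 11 lower in HLS mice and 3 and 13 in control mice, and with spike-in scaling relative to all genes 8 and 5, and 5 and 3. The called members' other probes often disagreed. In HLS mice there were 23 such probes, of which 3 were called in the same direction and 4 in the opposite one. In control mice there were 22, with 9 called in the same direction and 1 in the opposite one. The HLS and control comparisons share no arrays. Called in both were 8 members, which is 53.3% of the 15 and 66.7% of the 12. Among all genes the same shares were 69.8% of the HLS calls and 64.4% of the control calls. Of the 8, Eif5b, Eif4a1, Eif3c, Eif2s3y and Ago4 were higher in soleus, and Eif4e3, Eif4g3 and Ago1 lower. For control mice these 3 were lower relative to all genes only, since on the spike-in scale they were higher, at 0.35 to 0.66. Of the calls between the muscles, those of Eif4e3, Eif4a1 and Ago1 in both conditions held without each of the 20 arrays in turn, as did Eif5b and Eif2s3y in control mice and Eif4g3, Eif3c, Eif3g, Eif3l, Eif2s2, Eif2b3 and Ago4 in HLS mice. In control mice Eif4g3, at -0.39 (0.66 on the spike-in scale), was not called without soleus control array 2, 3 or 4 or gastrocnemius control array 1, 2, 3 or 4. The other calls each held without 12 to 17 of the 20 arrays. In control mice Eif3c was lost without soleus array 1 or 4 or gastrocnemius array 3, Ago3 without soleus array 1 or 4 or gastrocnemius array 1, 2 or 3, and Ago4 without soleus array 1 or 2 or gastrocnemius array 1, 2 or 3. In HLS mice Eif5b was lost without soleus array 1 or 4 or gastrocnemius array 2 or 4, Eif2s3y without soleus array 2, 3 or 4 or gastrocnemius array 2, and Eif4b without soleus array 1, 3 or 4 or gastrocnemius array 2 or 4. Eif3i was lost there without any 1 of soleus arrays 2 to 5 or gastrocnemius array 1 or 5, and Eif1ax without any 1 of arrays 2 to 5 of either muscle. With scan day as a block, a fit that for the control muscles rests on the HLS arrays, only Eif5b of the 12 control calls held.

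Markers of other cells differed between the muscles too. All 6 adipocyte markers were called higher in soleus, in HLS mice (median 1.85) and in control mice (median 2.46), with a summed level of 128 to 355 in soleus HLS and 79.9 to 97.5 in gastrocnemius HLS, and of 186 to 438 in soleus control and 86.4 to 103 in gastrocnemius control. Of the endothelial markers 2 of 6 were called higher in soleus of HLS mice (Pecam1 and Cdh5, list median 0.38) and 4 of 6 in control mice (these, Flt1 and Vwf, list median 0.34). Over all genes, 13.4% were called higher in soleus of HLS mice and 12.7% in control mice. The median of the 7 slow fibre markers was 2.25 in HLS mice and 2.87 in control mice. The part of these cells in the muscle differences was not tested.

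Eif4e3, which binds the cap in an atypical way, had the largest difference in HLS mice. It stood at 0.91, 0.31, 0.51, 0.42 and -0.03 in soleus HLS, against 1.43, 1.32, 1.29, 1.46 and 1.39 in gastrocnemius HLS, a difference of -0.95 ± 0.14 (limma adjusted p = 5e-05). In control mice it stood at 0.41, 0.35, 0.35, 0.19 and 0.51 in soleus, against 0.74, 1.24, 1.18, 1.21 and 0.96 in gastrocnemius, a difference of -0.70 ± 0.14 (limma adjusted p = 0.00064). On the spike-in scale Eif4e3 stood at -0.94 in HLS mice and at 0.35 in control mice, so its lower level in control soleus is relative to all genes. The muscles did not overlap in either condition, and its second probe differed by -1.10 and -0.97. The groups did not overlap for 10 members in HLS mice (22.7%, against 17.7% of all genes) and for 6 in control mice (13.6%, against 21.6%).

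Eif4a1 was higher in soleus. It stood at 3.83, 3.84, 4.19, 4.08 and 4.44 in soleus HLS, against 3.55, 3.07, 3.38, 3.60 and 3.55 in gastrocnemius HLS, a difference of 0.65 ± 0.13 (limma adjusted p = 0.00085) with no overlap. In control mice it differed by 0.41 ± 0.13 (limma adjusted p = 0.019), and its 2 other probes differed by 1.28 and 0.40.
Eif5b was higher in soleus by 0.30 ± 0.10 in HLS mice (limma adjusted p = 0.025) and by 0.80 ± 0.10 in control mice (limma adjusted p = 1e-05), where it averaged 4.06 ± 0.14 in soleus and 3.26 ± 0.16 in gastrocnemius (SD, n = 5). With the animal as a block the HLS call was lost (limma adjusted p = 0.056). It was also lost with quantile normalization, with the mean of all probes and without HLS animal 1. The 4 other probes of Eif5b differed by 0.05 to 0.43 in control mice, with 1 of the 4 called. On 1 of them soleus was the lower muscle in HLS mice, at 2.295 against 2.419 in gastrocnemius, and on the rest the higher. Eif2s3y, the copy of the eIF2 gamma subunit gene on the Y chromosome, was higher in soleus by 0.36 ± 0.12 in HLS mice and 0.47 ± 0.12 in control mice (limma adjusted p = 0.024 and 0.0046).

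Subunits of eIF3 went both ways. Eif3c was higher in soleus by 0.54 ± 0.12 in HLS mice and 0.37 ± 0.12 in control mice (limma adjusted p = 0.0019 and 0.020), and lost both calls with the mean of its probes (0.04 and 0.19). Eif3l and Eif3g were called in HLS mice, at 0.57 ± 0.11 and 0.43 ± 0.10 (limma adjusted p = 0.0010 and 0.0025), with no overlap of the muscles. In control soleus Eif3f was lower relative to all genes, at -0.53 ± 0.20 (limma adjusted p = 0.042, and 0.091 with the animal as a block), but stood at 0.52 on the spike-in scale. Eif4g1 was likewise at -0.68 ± 0.24 (limma adjusted p = 0.035, and 0.064 with the animal as a block) but 0.37 on the spike-in scale, and Eif5a at -0.49 ± 0.16 (0.021, and 0.046) but 0.57. In these 3 genes soleus control arrays 2 and 4 were the lowest of their group, and without either array the calls of all 3 were lost (-0.55 to -0.37). Those of Eif3f and Eif4g1 were also lost without gastrocnemius control array 1, 2, 3 or 4, and that of Eif5a without array 3 or 4. Eif2s2, the beta subunit of eIF2, and Eif2b3, the gamma subunit of eIF2B, were lower in soleus of HLS mice, at -0.56 ± 0.15 and -0.65 ± 0.19 (limma adjusted p = 0.0093 and 0.013). The Eif2s2 call was lost with scan day as a block, and that of Eif2b3 with normexp background (limma adjusted p = 0.16). The only probe of Eif2b3 was dim, with a mean level of -3.24, and its difference ranged from -0.81 to -0.26 over the alternatives. Eif4b, which helps the helicase, was higher in soleus of HLS mice by 0.36 ± 0.12 (limma adjusted p = 0.029), but the mean of its probes stood at -0.005.

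The Argonautes split by gene. Ago1 was lower in soleus, at -0.53 ± 0.10 in HLS mice and -0.43 ± 0.10 in control mice (limma adjusted p = 0.00062 and 0.0030), and Ago3 was lower in control mice at -0.52 ± 0.18 (limma adjusted p = 0.029), although on the spike-in scale control Ago1 stood at 0.63 and Ago3 at 0.53. Ago4 was higher, at 0.60 ± 0.11 and 0.32 ± 0.11 (limma adjusted p = 0.00049 and 0.033), although the mean of its probes stood at 0.03 and -0.07. The animal block also ended the calls of Ago4 in control mice (0.32, limma adjusted p = 0.051), and of Eif1ax (0.38, 0.079) and Eif3i (-0.46, 0.062) in HLS mice. The mean of the Eif1ax probes stood at -0.18 there.

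**Figure D4:**
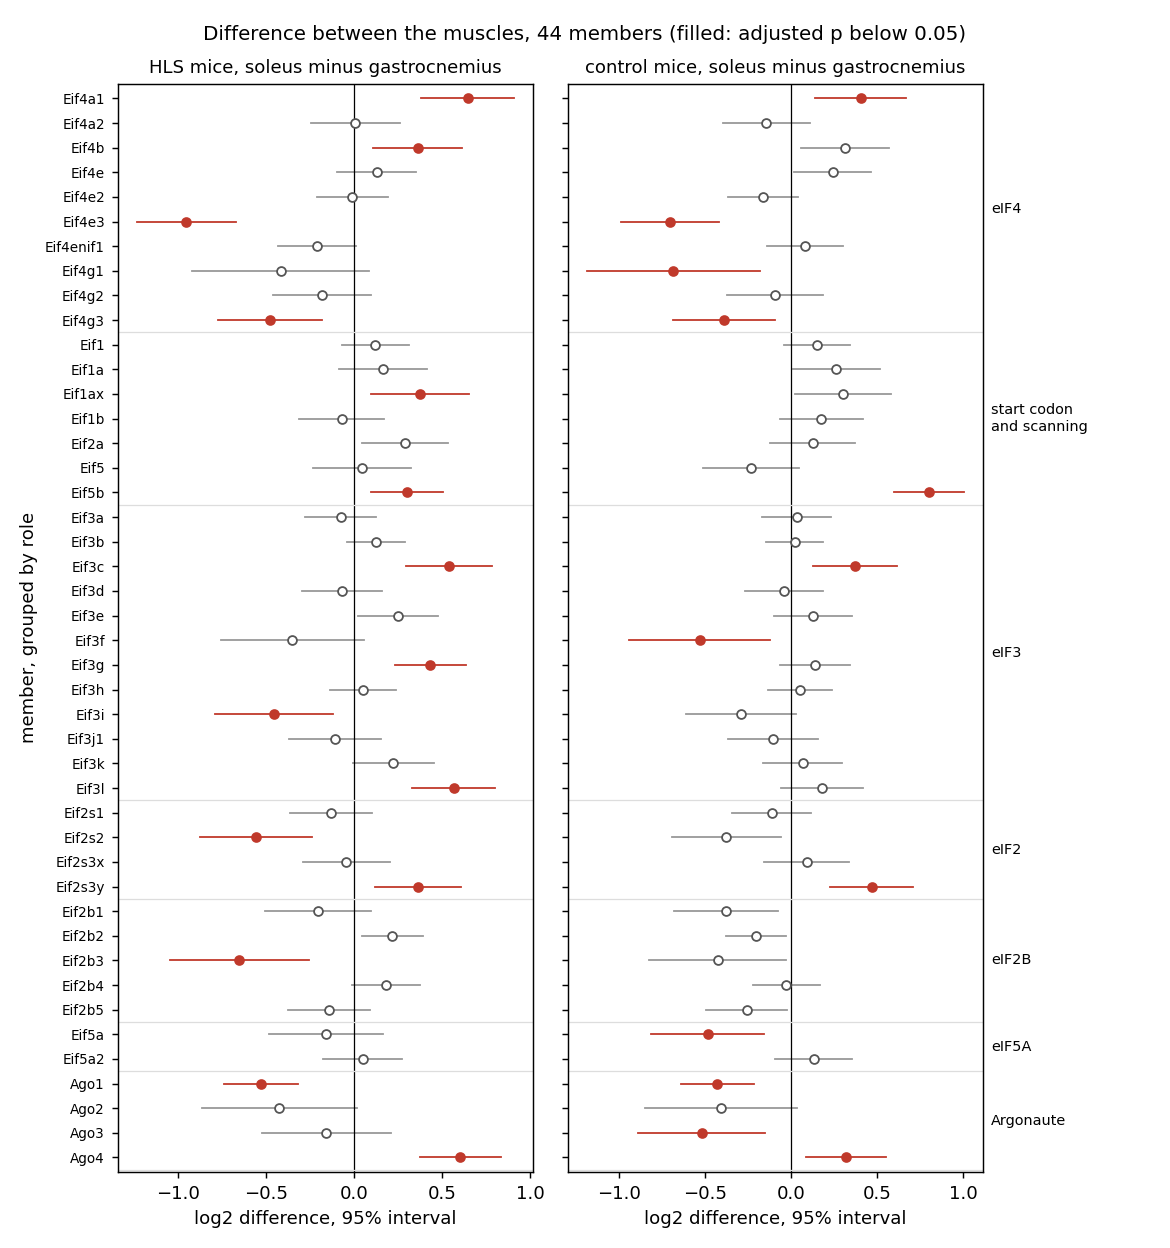
Log2 difference between soleus and gastrocnemius for each of the 44 members, with its 95% interval, in HLS mice (left) and control mice (right), grouped by role; filled red points have an adjusted p below 0.05 in limma's test. Eif4e3 stood at -0.95 and -0.70 and Eif5b at 0.30 and 0.80, after scaling to the 75th percentile; on the spike-in scale all 44 members were higher in control soleus, Eif4e3 by 0.35.

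Regulators of the cap complex and of eIF2 were followed in lists of related genes. Of 18 regulators of eIF4E and its partners, 1 was called in soleus and 2 in gastrocnemius, all higher. Over all genes, 2.39% in soleus and 1.16% in gastrocnemius were called higher. Mknk1, a kinase of eIF4E, stood at 2.21, 2.17, 2.49, 2.60 and 2.42 in soleus HLS, against 1.55, 1.82, 1.51, 1.76 and 1.58 in soleus control, a rise of 0.73 ± 0.14 (limma adjusted p = 0.0023) with no overlap. Eif4ebp1, the inhibitor of eIF4E known as 4E-BP1, stood at 4.09, 3.57, 4.04, 4.09 and 4.45 in gastrocnemius HLS, against 3.56, 3.13, 3.40, 3.56 and 3.33 in gastrocnemius control. The groups were apart by 0.65 ± 0.17 (limma adjusted p = 0.037), and in soleus Eif4ebp1 differed by 0.41 ± 0.17 (limma adjusted p = 0.18). The gastrocnemius call was lost without any of 8 arrays in turn (control arrays 2 to 5 and HLS arrays 1, 3, 4 and 5, 0.55 to 0.77 over all 20). The Eif4ebp1 call was also lost with the mean of all probes (limma adjusted p = 0.053), spike-in scaling relative to all genes (0.068), without HLS animal 1 (0.080), and with scan day (0.54) or slide (0.71) as a block. That of Mknk1 was lost with slide only. Pabpc1, the poly(A)-binding protein that joins eIF4G to the tail of the messenger RNA, rose by 0.49 ± 0.12 in gastrocnemius (limma adjusted p = 0.024) and lost the call without control array 1, 3 or 5 or HLS array 3, 4 or 5, without HLS animal 1, with spike-in scaling relative to all genes, with the mean of all probes (0.34), and with the replicate number, scan day or slide as a block. Eif4ebp2, Mknk2 and Pdcd4 were not called, at 0.45, 0.53 and -0.01 in soleus (limma adjusted p = 0.25, 0.068 and 0.99).

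Among 14 genes of elongation and termination, only Eef2k, the kinase that inhibits elongation factor eEF2, was called in soleus, where 5.93% of all genes were. It was not called in gastrocnemius. Eef2k stood at 1.43, 0.94, 1.24, 1.30 and 1.41 in soleus HLS, against 0.36, 0.57, 0.28, 0.23 and 0.50 in soleus control, a rise of 0.88 ± 0.11 (limma adjusted p = 2.6e-05), and 0.70 with slide as a block, where it was not called (limma adjusted p = 0.35). In gastrocnemius it differed by 0.38 ± 0.11 (limma adjusted p = 0.058), also with no overlap. Eef1a1 and Eef1a2, the elongation factors that deliver transfer RNA, were not called, at -0.07 and 0.25 in soleus and 0.21 and -0.35 in gastrocnemius.

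**Figure D5:**
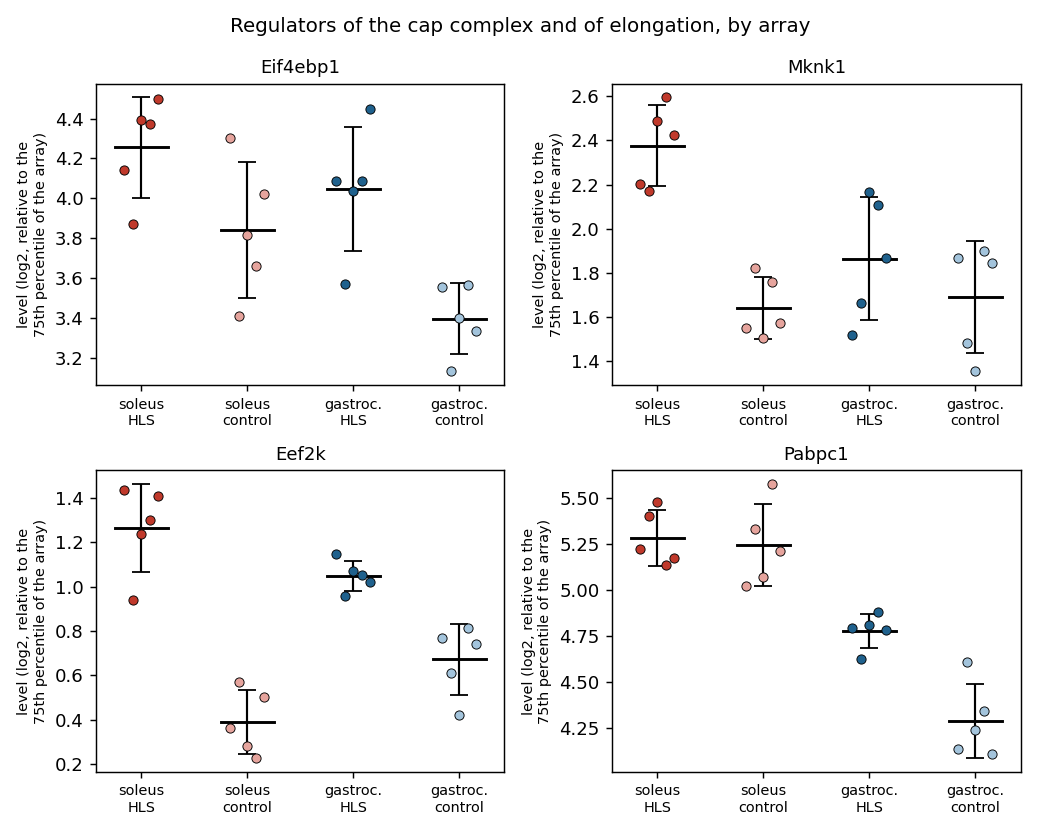
Level on each array of Eif4ebp1, Mknk1, Eef2k and Pabpc1, in log2 after scaling to the 75th percentile; bars are means with SD (n = 5 arrays per group), and each panel has its own axis. Mknk1 and Eef2k were higher on every soleus HLS array than on every soleus control array, by 0.73 and 0.88.

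Of 13 eIF2 kinase and phosphatase genes, only Nck1, an adaptor that recruits a phosphatase to eIF2, was called, in soleus at -0.46 ± 0.12 (limma adjusted p = 0.025), and none in gastrocnemius. Over all genes, 5.93% were called in soleus and 3.17% in gastrocnemius. The Nck1 call was lost without soleus control array 3, 4 or 5 or HLS array 5, with only the 10 soleus arrays, and with slide, scan day or the replicate number as a block. The kinase genes Eif2ak1 to Eif2ak4 ranged from -0.23 to 0.10 in soleus and from -0.31 to 0.15 in gastrocnemius, and the phosphatase subunits Ppp1r15a and Ppp1r15b from 0.02 to 0.07 over both muscles. Atf4, whose translation rises when eIF2 is phosphorylated, differed by -0.16 ± 0.14 in soleus and -0.002 ± 0.14 in gastrocnemius.

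Of 17 genes of the response to eIF2 phosphorylation, Chac1 and Psat1 were called higher and Ddit3 and Atf5 lower in soleus, at 3.38, 1.41, -0.61 and -0.43, and Chac1 higher in gastrocnemius at 2.48. Over all genes, 2.39% were called higher and 3.54% lower in soleus, and 1.16% higher in gastrocnemius. The Chac1 and Psat1 calls held without each of the 20 arrays in turn. Chac1 was lost with slide as a block in both muscles and with scan day in gastrocnemius, and Psat1 with slide, scan day and the replicate number. The Ddit3 call was lost without soleus control array 3 or 5 or HLS array 1 or 3, without HLS animal 1, with only the 10 soleus arrays, and with slide, scan day or the replicate number as a block. The Atf5 call held without 12 of the 20 arrays. It was lost without soleus control array 1, 3, 4 or 5 or HLS array 1, 2, 3 or 5, without HLS animal 1, with quantile or spike-in scaling, with only the 10 soleus arrays, and with each block.

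Of 16 genes of mTORC1 and its regulators, 4 inhibitors were called higher in both muscles. They were Ddit4 (2.14 in soleus and 2.55 in gastrocnemius), Ddit4l (2.22 and 1.46), Sesn1 (0.83 and 0.82) and Deptor (0.89 and 0.75). Of all genes, 2.39% were called higher in soleus and 1.16% in gastrocnemius, and 517 of 25291 were called in both muscles in either direction. Other inhibitors of the list, Sesn3, Tsc1, Tsc2 and Akt1s1, were not called in either muscle, nor was Sesn2, which stood in the list of the response to eIF2 phosphorylation. In soleus Ddit4 differed by only 0.54 with slide as a block, and its call was lost with slide, scan day, only the 10 soleus arrays, or without soleus HLS array 5 (1.79, limma adjusted p = 0.063). In gastrocnemius Ddit4 was lost with slide and scan day. Ddit4l and Sesn1 were lost with slide as a block in both muscles and with scan day in gastrocnemius, and held without each array in turn. Deptor was lost in soleus with slide and with the mean of all probes (1.21, limma adjusted p = 0.13). In gastrocnemius Deptor was lost under 12 of 33 alternatives, among them the omission of control array 1, 3 or 5 or HLS array 2, 3 or 5 (0.63 to 0.79, limma adjusted p = 0.052 to 0.10). Rptor, the scaffold subunit of mTORC1, was called lower in soleus at -0.40 ± 0.09 (limma adjusted p = 0.0097), but stood at -0.07 with the mean of its probes, and its call was also lost with only the 10 soleus arrays and with slide, scan day or the replicate number as a block.

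None of 7 genes of re-initiation and ribosome recycling and neither of the 2 mitochondrial initiation factor genes was called after HLS.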

How the data were processed

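Total RNA with spike-in RNA was labelled with Cy3 and hybridised to 20 one-colour Agilent arrays, per the labels' protocols. The deposited values are linear intensity of each spot, written by Feature Extraction 9.1.3.1 of Agilent as the file headers give it, with background detrending and no scaling between arrays. The deposited series table holds the same intensity (within 0.497% of the scanner values) and served as an alternative. The sources used here name no test of the authors.

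From these values, uneven spots were left out (at most 43 per array), log2 of the processed signal was scaled to each array's 75th percentile (385.5 to 736.1 in intensity), and replicate spots were averaged. The dim filter required a probe to be well above background on 4 or more of the 5 arrays in some group, and the brightest probe stood for a gene. No member probe was saturated on any array. Eif2b3 was well above background on 18 of 20 arrays, and Eif3i lacked 1 array, so its fit used the other 19. Older gene names were updated through the RefSeq gene table: 43 of the 44 members were matched by accession. Promoters are from RefSeq (GRCm38.p6).

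A model of the 4 group means was fitted over all genes with limma 3.58.1 (lmFit, eBayes) in R 4.3.3, with two-sided tests and Benjamini-Hochberg adjustment. The fit was tested on simulated data. Both muscles of a number within an arm come from 1 animal per the labels. For that reason the animal is given as a block for contrasts between muscles. The deviations of the muscles from the group means correlated at -0.345 to 0.17 over 10 animals (median 0.036). HLS and control animals of a number differ, so numbers do not pair them, and their correlations were -0.305 to 0.167 (median -0.019). These ranges are alike, so the correlations do not show which samples share an animal.

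Named members were those called in any of the 5 contrasts, the 4 highest and 4 lowest of each HLS contrast, and Eif4e, Eif4a1, Eif4a2, Eif4g1, Eif2s1, Eif2b5, Eif3a, Eif5a and Eif6; Eif4enif1, Sesn1, Deptor and the uncalled regulators and markers named beside them were added after their values were seen. The members, the lists of related genes and the marker lists were chosen with earlier results of these data known. Markers of macrophages, fibroblasts, tendon, adipocytes and Schwann cells were also read: in soleus 1 fibroblast gene (Mfap5) and 1 tendon gene (Scx) were called lower after HLS, in gastrocnemius 1 tendon gene (Scx), and no macrophage, adipocyte, Schwann, slow fibre, fast fibre or general muscle marker was called after HLS in limma's test. The alternatives were normexp background, quantile and spike-in scaling, the dim filter, the mean of all probes, only the 10 arrays of a contrast, slide, scan day and replicate number or animal as blocks, and each array left out. Leaving out both arrays of HLS animal 1 was chosen after seeing the data.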

Additional observations from a re-analysis of the deposited data

Results flagged for a closer look

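The 29 named members had 116 groups, and all were tested except gastrocnemius HLS of Eif3i, which lacked 1 array. Of the groups tested, 10 held an array that stood apart from the other 4 by Dixon's criterion at the 95% level. Chance flags about 1 in 20 groups. Values are log2 levels after scaling to the 75th percentile. Soleus HLS array 1, which also stood apart in fibre genes, was the highest for Eif4g3 (4.227, the other 4 between 3.507 and 3.617), Eif4a2 (4.758, the other 4 between 4.168 and 4.278) and Eif2b5 (1.482, the other 4 between 1.256 and 1.310). Gastrocnemius HLS array 2 was the lowest for Eif2b4 (3.029, the other 4 between 3.352 and 3.419), Eif3c (4.028, the other 4 between 4.291 and 4.389) and Eif4g1 (2.666, the other 4 between 2.829 and 2.880). Gastrocnemius control array 5 was the lowest for Ago1 (-1.213, the other 4 between -0.986 and -0.928), Eif2b5 (1.170, the other 4 between 1.393 and 1.453) and Eif2s2 (3.660, the other 4 between 3.997 and 4.088). Soleus control array 4 was the highest for Eif1b (2.883, the other 4 between 2.249 and 2.379).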

How the results depend on the processing

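In soleus the count of called members was 1 with spike-in scaling and with only the 10 arrays of the contrast, 2 with scan day as a block, 0 with slide as a block and 0 with the replicate block (the replicate number, which does not pair HLS with control animals), 2 without HLS animal 1, and 2 to 4 when each array was left out in turn, against 4 as reported. In gastrocnemius it was 1 with the mean of all probes, 0 with slide as a block, 0 with scan day as a block, 1 with the replicate block and 1 to 3 without each array, against 2. Between the muscles in control mice it was 1 with scan day as a block, and 5 (without gastrocnemius control array 3) to 16 (without soleus control array 5) when each array was left out, against 12; in HLS mice 10 to 16, against 15. With the animal as a replicate block these counts were 10 and 13, and that of the difference of effects stayed at 0, as it did under every alternative run. Slide could not be fitted as a fixed block between the muscles, because each slide held 1 muscle, and no fit on 10 arrays exists for the difference of effects. Eif4e kept its direction in both muscles under all 33 alternatives, in which spike-in scaling was relative to all genes (-0.77 to -0.54 in soleus and -0.68 to -0.43 in gastrocnemius) and its call without each of the 20 arrays; the soleus call was lost with slide or the replicate block, and the gastrocnemius call with slide, scan day or the mean of all probes. Values that changed sign were of members not called there, apart from the mean of all probes for Ago4 between control muscles (-0.07) and for Eif1ax (-0.18) and Eif4b (-0.005) between HLS muscles. These were Eif4a1 in soleus HLS against control (-0.001 with normexp, -0.074 with the mean of probes, -0.046 with scan day, and -0.015 to 0.136 without each array), Eif4g1 in gastrocnemius (0.038 with quantile normalization, 0.096 with slide, 0.035 with scan day, and -0.20 to 0.062 without each array), Eif5a in gastrocnemius (0.013 with slide, 0.023 with scan day), Eif4a2 in gastrocnemius (-0.025 without HLS animal 1, and -0.064 to 0.089 without each array), and, with slide as a block in soleus, Eif4g1 (-0.257), Eif2b5 (-0.043), Eif3a (-0.048) and Eif5a (-0.043). The cause of these changes was not tested.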
